A study of Mus musculus with 16 samples.

Results

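The 10 genes described here carry acetyl-CoA into fatty acids: Slc25a1, Acly and Acss2, which supply acetyl-CoA to the cytosol, Acaca and Fasn, which build the chain, and Scd1, Scd2, Elovl6, Fads1 and Fads2, which desaturate or lengthen it. They were chosen by name for their place in the pathway, with earlier results of these data known. This limits every count of them set against all genes. All 10 were found among the 55401 genes of the deposited tables and had enough reads to be tested. The RNA came from cultures of OT-I T cells, CD8+ cells that bear a transgenic receptor for an ovalbumin peptide and that were activated with it before culture. WT cells and TPdh-/- cells, in which CD4-cre acts on floxed Pdha1 alleles, were each grown with IL-2 towards effector cells (TE) or with IL-15 towards memory cells (TM). The study used young adult mice. Each of the 4 groups had 4 libraries, numbered 1 to 4 for WT TE, 5 to 8 for TPdh-/- TE, 9 to 12 for WT TM and 13 to 16 for TPdh-/- TM. CD4-cre is active from the thymus on, so it acts before activation and culture. The paper's figure legend gives 5 mice per condition for RNA-seq of TM cells, where each group here has 4 libraries. The labels do not tie libraries to animals. A p value here covers only the spread from library to library, which may be that of animals or technical.

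Pyruvate dehydrogenase makes acetyl-CoA from pyruvate inside mitochondria, and Pdha1 encodes a subunit of its first enzyme. Acetyl-CoA cannot cross the inner mitochondrial membrane. It leaves as citrate through the citrate carrier encoded by Slc25a1, and ATP citrate lyase (Acly) then cleaves citrate back to acetyl-CoA in the cytosol. Acss2 offers a second supply, since it activates acetate directly. Acetyl-CoA carboxylase 1 (Acaca) commits acetyl-CoA to fatty acid synthesis and fatty acid synthase (Fasn) makes palmitate from it. Elovl6 lengthens palmitate, Scd1 and Scd2 place the first double bond in saturated chains, and Fads2 and Fads1 act in turn on polyunsaturated chains. Activated T cells need these lipids for new membrane, and much of the pathway is under the sterol-responsive factors SREBP1 and SREBP2 together with LXR and NF-Y.

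On GRCm38 the genes lie on chromosome 11 (Acly, Acaca and Fasn), 19 (Scd1, Scd2, Fads1 and Fads2), 2 (Acss2), 3 (Elovl6) and 16 (Slc25a1). Promoter sequence was at hand for 7 of the 10 genes, in RefSeq windows of 250 bases before the start on GRCm38.p6. Scd1, Scd2 and Fads1 had no entry. The Acaca window lies at a start inside the gene, far from its first exon, and held no match to any motif below, so it says nothing of the main promoter. Each window was searched on both strands for CCAAT (the NF-Y box, present in 33.8% of all 32851 windows), GGGCGG (the GC box, 32.7%), CACGTG (an E-box, 6.02%) and TCACNCCAC (a sterol regulatory element, 1.05%). The NF-Y box was found in 3 of the 7 windows (Acss2, Slc25a1 and Fasn), the GC box in 4 (Acly, Acss2, Slc25a1 and Fads2), the E-box in 1 (Slc25a1), and none held the sterol element as spelled here. Shown are Fasn, whose genotype difference changed most between the cultures, and Acly and Slc25a1, which precede it in the route, with motif letters in capitals and the rest in lower case, 5′ to 3′ on the gene's strand.
Fasn, chr11:120824592-120824647, minus strand: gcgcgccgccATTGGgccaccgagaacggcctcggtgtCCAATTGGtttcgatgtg
Acly, chr11:100528012-100528127, minus strand: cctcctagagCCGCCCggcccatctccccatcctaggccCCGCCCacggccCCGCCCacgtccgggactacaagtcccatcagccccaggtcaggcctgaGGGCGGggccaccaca
Slc25a1, chr16:17928220-17928468, minus strand: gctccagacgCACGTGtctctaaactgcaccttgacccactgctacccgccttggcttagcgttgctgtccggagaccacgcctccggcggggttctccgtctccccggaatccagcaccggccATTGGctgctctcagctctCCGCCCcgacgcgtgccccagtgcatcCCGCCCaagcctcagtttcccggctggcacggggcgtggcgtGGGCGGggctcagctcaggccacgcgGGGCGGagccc
In the Fasn stretch the NF-Y boxes begin 90, 62 and 59 bases before the start, and the last of these overlaps its neighbour within CCAATTGG. Acly has GC boxes only, and Slc25a1 has both kinds. A match in letters is a description of the window and shows no binding.

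Levels are given in CPM, counts scaled to a common library total with TMM factors, and differences as log2 of TPdh-/- over WT or of TM over TE. All 15277 genes with enough reads were tested together with edgeR's quasi-likelihood test and Benjamini-Hochberg adjustment, and a gene was called at an adjusted p below 0.05. Each SE reflects the spread of log2 CPM between libraries. Totals ran from 53007257 to 73507566 counts per library. Library 12 (WT TM) and library 5 (TPdh-/- TE) stood furthest from their groups, and results that change without them are given beside the result. Pdha1 itself lay at 169, 169, 179 and 194 CPM in WT TM and at 141, 151, 160 and 158 CPM in TPdh-/- TM, a log2 difference of -0.22 ± 0.06 (SE, adjusted p = 0.00556). In TE it lay at 160 to 162 CPM in WT and 147 to 156 CPM in TPdh-/- (-0.08 ± 0.02, adjusted p = 0.285). The floxed part of Pdha1 is a single short exon, so counts over the whole gene are a weak check of the deletion. In splenic TPdh-/- T cells the paper reports no Pdha by qPCR and no PDHA protein by immunoblot. The summed TPM (a level per transcript length and library total) of 7 CD8 T cell markers was 4284 to 4430 in WT TM and 3436 to 3642 in TPdh-/- TM. In TE it was 3436 to 3737 in WT and 2573 to 2899 in TPdh-/-. The libraries thus carried strong T cell signal. The sum was lower in TPdh-/- (exact permutation p = 0.0286 in each culture, the smallest that 4 against 4 libraries allow). In TM 4 of the markers were called lower (Cd3e, Cd8a, Cd8b1 and Trac). Cd3d, Cd3g and Cd2 were not called there (log2 differences of 0.027, -0.002 and -0.016). In TE 6 were called lower and Cd8a was not called. The summed TPM of 9 NK cell markers went the other way, with 5.59 to 8.46 in WT TM, 65.5 to 104 in TPdh-/- TM, 5.57 to 7.31 in WT TE and 9.2 to 15.4 in TPdh-/- TE. Of 9 macrophage markers the sum was 5.58 to 6.59 in WT TM, 22.7 to 38.0 in TPdh-/- TM, 10.2 to 13.8 in WT TE and 14.2 to 23.6 in TPdh-/- TE, and 5 of these markers lay under 1 TPM in every library. The part of such signal in the differences below was not tested. In bulk RNA fewer cells of a type and less RNA per cell cannot be told apart. The NK cell markers used here are mostly killer cell receptor genes. Tyrobp, which is not a killer cell receptor gene, gave 44.2 TPM of the mean sum of 88 TPM in TPdh-/- TM. In WT TM it gave 3.13 TPM of 6.58 TPM. All 9 markers were called higher in TM and 7 in TE, where Klrb1c and Klri2 were not called (log2 differences of -0.18 and -0.09). The paper places killer-like receptor genes among the most upregulated in TPdh-/- TM cells and reads them as effector T cell markers. Whether CD8+ T cells or other cells gave the NK marker signal was not tested. The 3 CD4 T cell markers summed to at most 9 TPM in any library, with 1.07 to 1.75 in WT TE and 3.64 to 9 in TPdh-/- TE, and the 6 B and plasma cell markers to 7.32 to 8.9 in WT TE and 9.16 to 17.7 in TPdh-/- TE, and to 10.6 to 22.9 in WT TM and 11.3 to 50.4 in TPdh-/- TM. Adipocytes left almost no trace: 6 adipocyte markers summed to at most 0.59 TPM in any library, with Lep and Cfd at 0 throughout. Markers of other lipid-making cell types, such as liver cells, were not examined.

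In TE cultures most of the pathway was more abundant in TPdh-/- cells. Of the 10 genes 8 were higher and none was lower, against 17.3% of all tested genes higher and 14.3% lower. As the genes were chosen with earlier results known, this comparison with all genes is a description. The median log2 difference of the 10 genes was 0.64, where that of all tested genes lay at 0.00. In all 8 of these genes every TPdh-/- TE library lay above every WT TE library, as it did in 16.5% of all tested genes. In TM cultures the picture was mixed. There 3 genes were higher (Acss2, Scd1 and Fads2), Fasn was lower and 6 were not called, against 11.0% and 7.27% of all genes, and the median was -0.05. Fewer of these TM calls held when libraries were left out, as given gene by gene below. In TE the call of Scd1 (edgeR, adjusted p = 0.0496) was lost in 10 of 15 alternatives, and the other 7 held.

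**Figure D1:**
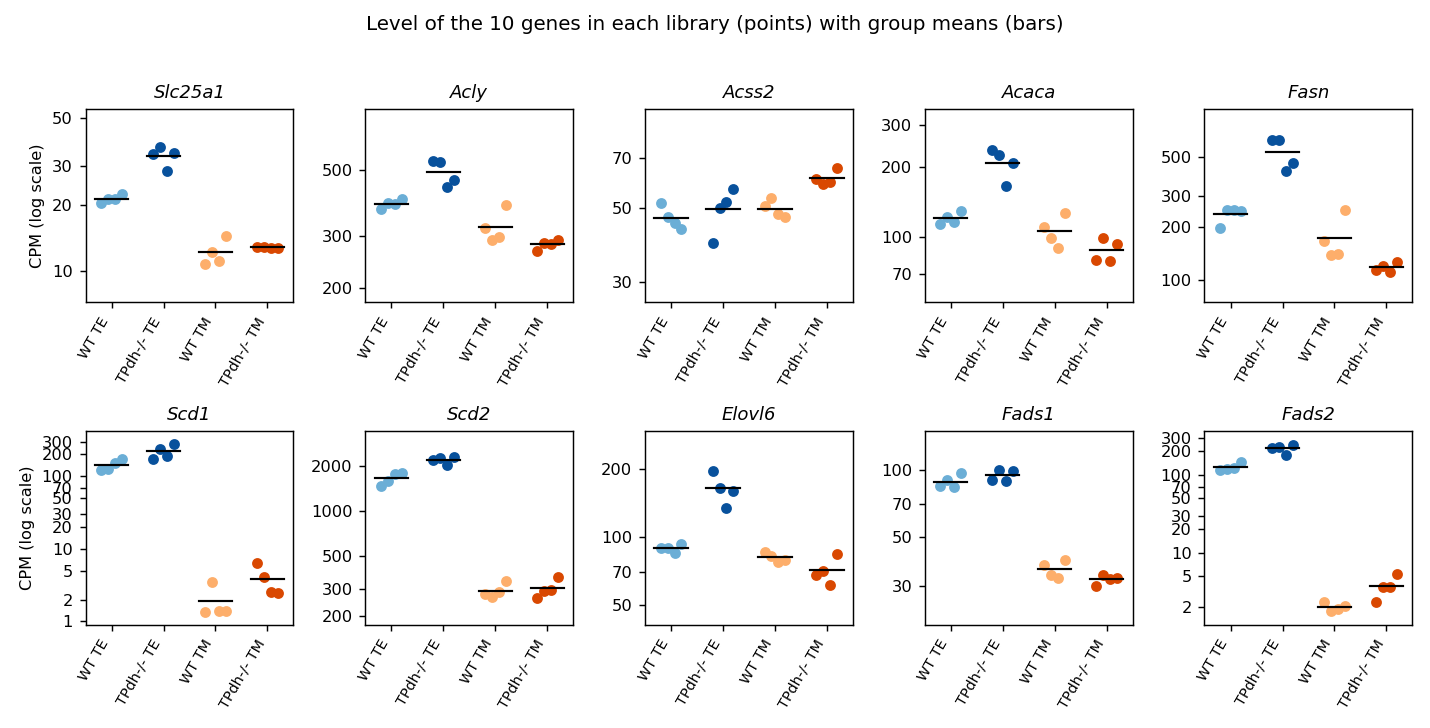
CPM of each gene (y axes, log scale, each with its own range) in the 16 libraries (points) of the 4 groups (x axes), with the mean of each group as a bar. In 8 genes the TPdh-/- TE points all lie above the WT TE points, and Scd1 and Fads2 drop from over 100 CPM in TE to under 7 CPM in TM.

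Slc25a1, the citrate carrier, stood at 20.5, 21.3, 21.3 and 22.5 CPM in WT TE and at 34.2, 36.7, 28.7 and 34.7 CPM in TPdh-/- TE. The groups did not overlap, and the log2 difference was 0.65 ± 0.08 (SE, adjusted p = 1.71e-05), a fold of 1.57. In TM the libraries read 10.8, 12.3, 11.1 and 14.5 CPM in WT and 12.9, 12.9, 12.7 and 12.8 CPM in TPdh-/-. The TPdh-/- values fell inside the range of WT (0.08 ± 0.10, adjusted p = 0.598).

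Acly makes cytosolic acetyl-CoA from the exported citrate. Its libraries read 368.5, 386.5, 384 and 401 CPM in WT TE and 538, 532, 437 and 463 CPM in TPdh-/- TE, again without overlap. The log2 difference was 0.36 ± 0.08 (adjusted p = 0.0027). In TM the order was turned, with 320, 291, 298 and 381 CPM in WT and 267, 282.5, 281.5 and 290.4 CPM in TPdh-/-. Every TPdh-/- TM library lay below every WT TM library, by a small margin, and the difference was not called (-0.20 ± 0.09, adjusted p = 0.0928). Without WT TM library 10 it was -0.25 with an adjusted p of 0.0487.

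Acss2, which turns acetate into acetyl-CoA, was the supply gene that did not follow. WT TE libraries held 51.6, 46.7, 45.1 and 43.2 CPM and TPdh-/- TE libraries 39.2, 49.9, 51.8 and 56.9 CPM, groups that overlapped fully (0.08 ± 0.13, adjusted p = 0.512). Library 5 was the lowest of all 16, and without libraries 5 and 12 the difference was 0.18 with an adjusted p of 0.0451. In TM, WT held 50.5, 53.3, 47.7 and 46.8 CPM and TPdh-/- 60.6, 59.0, 59.4 and 65.6 CPM. All TPdh-/- TM libraries lay above all WT TM libraries, and Acss2 was called higher (0.30 ± 0.05, adjusted p = 0.0232). The call was lost without library 11 (0.29, adjusted p = 0.0548), library 12 (0.28, adjusted p = 0.0618) or library 16 (0.27, adjusted p = 0.0684), while the size hardly moved. The library kit records no strand, and Acss2 shares 395 exon bases with Gss on the other strand. Gss held 598 to 1279 counts where Acss2 held 2285 to 3936. Acss2 also shares exon bases with Acss2os and Ggt7 on that strand.

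Acaca encodes the carboxylase that makes malonyl-CoA, the committed step of synthesis. It stood at 114, 122.5, 117 and 129 CPM in WT TE and at 234.5, 223, 165 and 208 CPM in TPdh-/- TE. No libraries overlapped and the log2 difference was 0.79 ± 0.12 (adjusted p = 4.36e-05). In TM the libraries overlapped, at 110.2, 99.7, 90.1 and 127 CPM in WT and 80.2, 99.1, 79.3 and 93.4 CPM in TPdh-/- (-0.28 ± 0.13, adjusted p = 0.0916). Leaving out WT TM library 11, the lowest of its group, gave -0.35 with an adjusted p of 0.0416. Of the 50-base words in Acaca transcripts 30.4% also occur elsewhere, mostly in the predicted gene Gm5182, which drew at most 1.9% as many counts as Acaca in any library.

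Fasn, the synthase that makes palmitate, had the genotype difference that changed most between the cultures. WT TE libraries read 198, 250, 249 and 247.5 CPM, and TPdh-/- TE libraries read 632, 631, 418 and 463 CPM. The TPdh-/- libraries were all above the WT libraries, by a log2 difference of 1.18 ± 0.17 (adjusted p = 4.23e-05) or a fold of 2.27. In TM the direction was the opposite, with 165, 138, 139 and 249 CPM in WT and 113.5, 119, 111 and 126 CPM in TPdh-/-. All TPdh-/- TM libraries lay below all WT TM libraries, and Fasn was called lower (-0.56 ± 0.20, adjusted p = 0.0255). WT TM library 12 was the highest of its group, and without it the difference was -0.33 with an adjusted p of 0.105. The TM call was also lost without library 13 (-0.54, adjusted p = 0.0605), library 14 (-0.56, adjusted p = 0.0521) or library 15 (-0.53, adjusted p = 0.0652), and without libraries 5 and 12 together (-0.33, adjusted p = 0.069).

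Scd1 and Scd2 encode desaturases that make monounsaturated fatty acids, and Scd2 was the more abundant of them in these cells. Scd2 held 1452, 1587, 1755 and 1787 CPM in WT TE and 2186, 2253, 2030.0 and 2261 CPM in TPdh-/- TE, without overlap (0.41 ± 0.08, adjusted p = 0.00357). In TM it held 281.5, 266.5, 288 and 342 CPM in WT and 263, 294.5, 299.5 and 365 CPM in TPdh-/-, and the groups overlapped over nearly their whole range (0.05 ± 0.13, adjusted p = 0.754). Scd1 held 122, 126, 153.5 and 172 CPM in WT TE and 176, 236.5, 191 and 281 CPM in TPdh-/- TE. Those groups did not overlap, but the lowest TPdh-/- value lay close to the highest WT value, and the call was at the threshold (0.63 ± 0.19, adjusted p = 0.0496). It was lost in 10 of 15 alternatives, among them the fit without WT TE library 1 (0.54, adjusted p = 0.136), library 2 (0.56, adjusted p = 0.129), library 3 (0.65, adjusted p = 0.0826) or library 4 (0.71, adjusted p = 0.0525), and the fit without TPdh-/- TE library 6 (0.58, adjusted p = 0.11), library 7 (0.68, adjusted p = 0.0506) or library 8 (0.48, adjusted p = 0.157).

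In TM almost no Scd1 was left, with 1.36, 3.44, 1.39 and 1.39 CPM (81 to 186 counts) in WT and 6.48, 4.11, 2.54 and 2.50 CPM (141 to 377 counts) in TPdh-/-. Library 10 of WT lay above 2 of the TPdh-/- libraries, so the groups overlapped, and Scd1 was called higher (1.06 ± 0.46, adjusted p = 0.0365). The call was lost in 8 of 15 alternatives. The difference was 0.70 without TPdh-/- library 13 (adjusted p = 0.157), 0.93 without WT library 9 (adjusted p = 0.105), 0.95 without library 11 (adjusted p = 0.0917), 0.94 without library 12 (adjusted p = 0.107) and 1.04 without library 14 (adjusted p = 0.0719). Scd1 and Scd2 also share sequence. Of the 50-base words in Scd2 transcripts 2.66% lie in Scd1 as well, a share that would amount to 7.08 to 9.07 CPM of Scd2 in WT TM and 6.98 to 9.7 CPM in TPdh-/- TM, more than all the counts given to Scd1 there. The paper's read pairs were longer than these words, so that share is not the number of Scd2 reads expected in Scd1. How far shared sequence bears on the level of Scd1 in TM was not tested, and that level stays uncertain.

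Elovl6 lengthens palmitate to stearate. It stood at 89.8, 89.6, 85.7 and 94.0 CPM in WT TE and at 197, 166, 135 and 161 CPM in TPdh-/- TE. The TPdh-/- libraries were all higher, by a log2 difference of 0.88 ± 0.11 (adjusted p = 3.3e-06), which was the smallest adjusted p of the 10 genes in that comparison. In TM it stood at 86.1, 82.7, 77.9 and 79.6 CPM in WT and at 68.5, 71.3, 61.7 and 84.8 CPM in TPdh-/-, where library 16 lay inside the WT range (-0.19 ± 0.10, adjusted p = 0.192).

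Fads2 and Fads1 encode the delta-6 and delta-5 desaturases and lie near each other on chromosome 19, on opposite strands. Fads2 held 117, 119.6, 123 and 144.5 CPM in WT TE and 224, 228, 181 and 243.5 CPM in TPdh-/- TE, without overlap (0.80 ± 0.12, adjusted p = 0.000232). In TM it fell to 2.34, 1.80, 1.88 and 2.08 CPM (97 to 150 counts) in WT and 2.30, 3.59, 3.65 and 5.29 CPM (134 to 298 counts) in TPdh-/-. Fads2 was called higher in TPdh-/- TM (0.86 ± 0.26, adjusted p = 0.00422) although library 13 lay just below the highest WT library, and the call held in all 15 alternatives, with differences from 0.39 on the log2(TPM + 1) scale to 1.03. Fads1 moved less. Its libraries read 84.4, 89.8, 83.6 and 97.5 CPM in WT TE and 90.3, 100.2, 89.7 and 99.3 CPM in TPdh-/- TE, which overlapped (0.10 ± 0.07, adjusted p = 0.296). In TM they read 37.2, 33.6, 32.7 and 39.2 CPM in WT and 30.1, 33.5, 32.2 and 32.5 CPM in TPdh-/- (-0.15 ± 0.07, adjusted p = 0.126).

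The question of whether loss of the enzyme acted differently in TE and in TM was put to the interaction, the genotype difference in TM minus that in TE. It was called for 5 of the 10 genes, all negative, against 7.51% of all genes negative and 8.05% positive. Fasn had the largest value, -1.74 ± 0.27 (SE, adjusted p = 8.18e-05). Elovl6 followed at -1.07 ± 0.15 (adjusted p = 5.43e-05) and Acaca at -1.06 ± 0.18 (adjusted p = 0.000187). Slc25a1 gave -0.57 ± 0.13 (adjusted p = 0.0036) and Acly -0.56 ± 0.12 (adjusted p = 0.00282). These 5 genes thus include both steps of the citrate route and both steps of chain building, with the elongase of palmitate. Each of the 5 calls held in all 22 alternatives run for it, library 12 left out or not. Of the desaturases, Scd2 gave -0.35 ± 0.15 (adjusted p = 0.0861, and 0.0222 without library 16), Fads1 -0.25 ± 0.10 (adjusted p = 0.0834), Scd1 0.44 ± 0.50 (adjusted p = 0.523) and Fads2 0.06 ± 0.28 (adjusted p = 0.894), and Acss2 gave 0.22 ± 0.14 (adjusted p = 0.258).

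**Figure D2:**
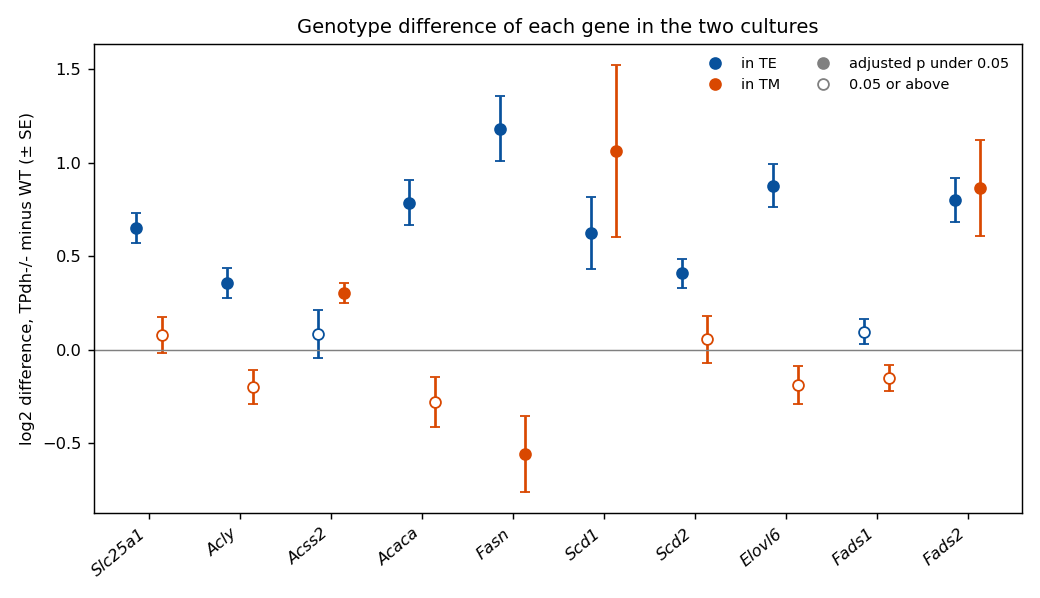
Log2 difference of TPdh-/- over WT (y axis, ± SE) for each gene (x axis) in TE (blue) and TM (orange), with filled points for an adjusted p under 0.05. Fasn runs from 1.18 in TE to -0.56 in TM, whereas Fads2 lies at 0.80 and 0.86.

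The largest differences in these genes lay between the cultures. In WT cells 7 of the 10 were lower in TM than in TE and none was higher, against 34.3% of all genes lower and 34.3% higher, with a median of -0.63. In TPdh-/- cells 9 were lower and 1, Acss2, was higher, against 34.7% and 33.0%, with a median of -1.48. The comparisons share libraries with those between the genotypes above and are not independent of them. In WT the desaturases fell most. Scd1 fell by 6.26 ± 0.35 (SE) on the log2 scale (adjusted p = 3.42e-11), Fads2 by 5.95 ± 0.11 (adjusted p = 2.09e-13), Scd2 by 2.48 ± 0.10 (adjusted p = 3.18e-12) and Fads1 by 1.32 ± 0.08 (adjusted p = 3.83e-11). In TPdh-/- they fell by 5.83 ± 0.36, 5.89 ± 0.26, 2.84 ± 0.11 and 1.56 ± 0.05 in the same order (adjusted p = 5.41e-11, 1.71e-13, 1.42e-12 and 7.27e-12). No library of either culture overlapped with the other in these genes.

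Most supply and synthesis genes differed less between the cultures in WT than in TPdh-/- cells. Slc25a1 fell by 0.81 ± 0.10 in WT (adjusted p = 2.36e-07) and by 1.39 ± 0.08 in TPdh-/- (adjusted p = 4.26e-10). For Acly the differences were -0.26 ± 0.09 in WT (adjusted p = 0.00881, with library 12 inside the TE range) and -0.81 ± 0.08 in TPdh-/- (adjusted p = 1.14e-07). Fasn gave -0.45 ± 0.22 in WT (adjusted p = 0.0221) and -2.19 ± 0.16 in TPdh-/- (adjusted p = 6.92e-09). The WT value was not called without library 10 (-0.35, adjusted p = 0.0787) or library 11 (-0.37, adjusted p = 0.072), and it was -0.68 without library 12. Acaca gave -0.17 ± 0.11 in WT (adjusted p = 0.169, and -0.27 with 0.0335 without library 12) and -1.24 ± 0.14 in TPdh-/- (adjusted p = 3.87e-08). Elovl6 likewise gave -0.14 ± 0.04 in WT (adjusted p = 0.212) and -1.20 ± 0.15 in TPdh-/- (adjusted p = 1.03e-08). Acss2 alone was not lower in either genotype, with 0.09 ± 0.07 in WT (adjusted p = 0.392) and 0.31 ± 0.12 in TPdh-/- (adjusted p = 0.00517, all TM libraries above all TE libraries).

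Per transcript length, Scd2 dominated the set in TE and Acly in TM. Scd2 lay at 335 ± 35 TPM (SD, n = 4) in WT TE and 489 ± 26 TPM in TPdh-/- TE, then at 68.4 ± 12.2 TPM in WT TM and 68.3 ± 7.0 TPM in TPdh-/- TM. Acly lay at 103 ± 2.5, 150.0 ± 18.1, 105 ± 22.7 and 89.6 ± 4.6 TPM in the same order of groups. Summed over the 10 genes the level was 687 ± 56 TPM in WT TE, 1077 ± 85 in TPdh-/- TE, 302 ± 57 in WT TM and 277 ± 11 in TPdh-/- TM. The TE groups did not overlap in this sum (618 to 748 against 958 to 1157 TPM), and the TM groups did (258 to 385 against 264 to 291 TPM). Scd2 made up 47.3% to 50.3% of it in WT TE and 44.1% to 47.5% in TPdh-/- TE, but 21.6% to 24.3% in WT TM and 22.6% to 27.1% in TPdh-/- TM. TPM is not rescaled between libraries, so shifts of all genes enter these sums. On log2(TPM + 1) the median genotype difference in TE was 0.09 over all genes and 0.77 over the 10 genes. For culture in WT the medians were 0.12 over all genes and -0.56 over the 10 genes.

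In WT TE, Scd2 and Acly were followed by Fads2 (46.4 ± 5.1 TPM), Scd1 (44.0 ± 8.0), Fasn (39.98 ± 4.27), Fads1 (31.6 ± 2.6), Slc25a1 (26.4 ± 2.7), Acaca (21.3 ± 1.6), Acss2 (21.2 ± 1.3) and Elovl6 (18.3 ± 1.0). Neighbours from Fads2 to Fasn, and Acaca and Acss2, lay within a SD of each other. In TPdh-/- TM the order below Acly and Scd2 began with Acss2 (31.3 ± 1.4 TPM), which there exceeded Slc25a1 (19.6 ± 1.2) and Fasn (18.3 ± 1.2) in every library. It also exceeded both in the WT TM libraries other than library 12, where Fasn (41.1 TPM) lay above Acss2 (27.6 TPM). The ratio of Acly to Acss2 in TPM put both supplies of acetyl-CoA in one figure. It was 4.38 to 5.21 in WT TE, 5.03 to 8.55 in TPdh-/- TE, 3.25 to 4.95 in WT TM and 2.695 to 2.99 in TPdh-/- TM, so the TM groups did not overlap and the TE groups did. The ratio of Fads2 to Fads1 was 1.39 to 1.53 in WT TE, 2.09 to 2.58 in TPdh-/- TE, 0.0578 to 0.0601 in WT TM and 0.0767 to 0.164 in TPdh-/- TM, with no overlap between genotypes in either culture.

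**Figure D3:**
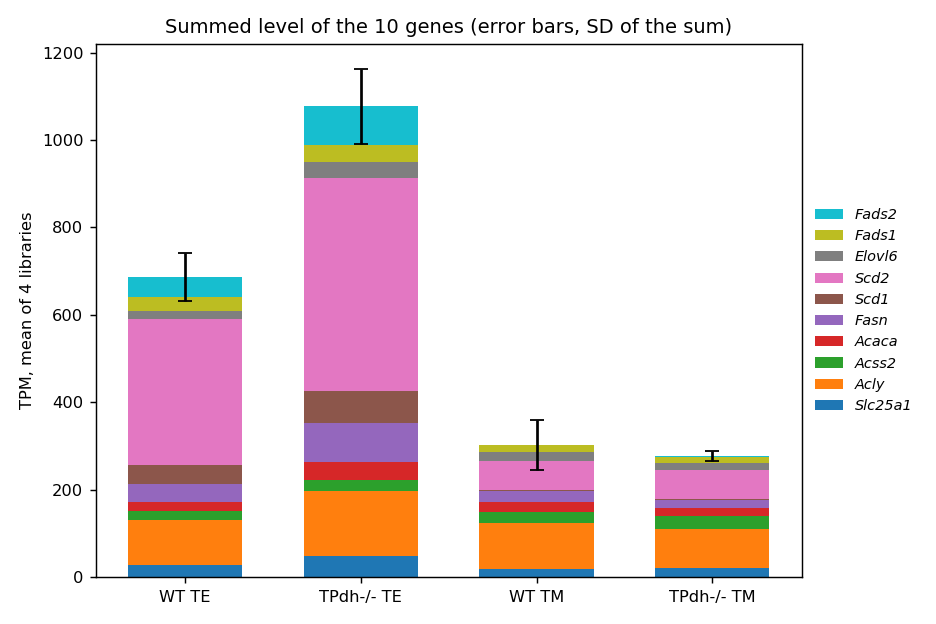
Mean TPM of the 10 genes (y axis, stacked) in the 4 groups (x axis), with the SD of the summed level over 4 libraries as error bars. The sum rises from 687 TPM in WT TE to 1077 TPM in TPdh-/- TE and lies at 302 and 277 TPM in TM, where the share of Scd2 is smaller. TPM is not rescaled between libraries.

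The tables also gave for each gene a mean transcript length, weighted by how reads were shared among its transcripts, which moves when the mix of transcripts does. In WT it differed between TM and TE at an adjusted p below 0.05 (limma on log2 length) for 4 of the 10 genes, against 23.2% of the genes tested, and in TPdh-/- for 1 (Fads1), against 21.7%. Among genes with a mean of at least 5 CPM, as all 10 have, the shares were 31.4% and 29.7%. The 4 of 10 in WT thus lay near the share of such genes. The change in Fasn was the largest of the called ones, from 6189 to 6872 bases in WT TE to 7719 to 8272 bases in WT TM (log2 difference 0.31, adjusted p = 0.000842). In TPdh-/- TE it was 6899 to 7536 bases, above the WT TE range but not called between the genotypes (log2 difference 0.16, adjusted p = 0.428), and in TPdh-/- TM 7020 to 8354 bases. Fads1 went from 3243 to 3270 bases in WT TE to 3017 to 3178 bases in WT TM (-0.08, adjusted p = 0.000547), and Slc25a1 and Fads2 were shorter in WT TM by similar amounts (-0.08, adjusted p = 0.0407, and -0.09, adjusted p = 0.0323). Fads2 had few counts in TM. The interaction in length was not called for any of the 10 genes (Fasn -0.22, adjusted p = 0.522). The 4 calls in WT and 1 in TPdh-/- therefore do not show a difference between the genotypes. Which transcripts were involved was not examined.

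Some of the 10 genes moved together from library to library once the group means were taken out. Over the 16 libraries Pearson's r of these log2 CPM deviations was 0.97 between Acly and Fasn, 0.85 between Acly and Acaca and 0.83 between Fasn and Acaca. Slc25a1 gave 0.74 with Acly and 0.75 with Fasn. Scd2 and Fads2 gave 0.77. Acss2 gave -0.56 with Acly, -0.55 with Fasn and -0.23 with Slc25a1. Among all tested genes Acly was the one most like Fasn and Fasn the one most like Acly, and next came Hcfc1 (0.96) for Fasn and Arhgdia (0.95) for Acly. The genes most like Acaca were Hsp90ab1 (0.96), a cytosolic chaperone, and Snrnp200 (0.95), a splicing helicase. Such likeness is a description of 16 libraries that share preparation and depth, and libraries 5 and 12, which stand apart, weigh on it. Without the 2 libraries where the gene's own deviation lay furthest from its median, the r of Acly and Fasn was 0.94. Library 5 was not among those 2, so this is not the r without libraries 5 and 12.

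Genes around the pathway were counted in the same fit. Each list, also chosen with earlier results of these data known, is to be read against the shares over all genes. These were 17.3% higher and 14.3% lower in TE and 11.0% higher and 7.27% lower in TM. The genes of both SREBPs were not called in TE. Srebf1, which encodes SREBP1, differed by 0.02 ± 0.09 in TE (adjusted p = 0.914) and was lower in TPdh-/- TM (-0.34 ± 0.15, adjusted p = 0.036). Srebf2 differed by -0.01 ± 0.06 in TE (adjusted p = 0.958) and by -0.24 ± 0.13 in TM (adjusted p = 0.0946). Of 20 lipogenic regulators tested, 4 were higher and 2 lower in TE, and 2 were lower in TM, all near those shares. The TM genes were Srebf1 and Scap, the escort of the SREBPs (-0.29 ± 0.10, adjusted p = 0.0198). The higher ones in TE were led by Rxra, the shared partner of nuclear receptors (1.40 ± 0.14, adjusted p = 1.3e-07), which was also the leading gene of this list in the interaction (-1.67 ± 0.18, adjusted p = 3.06e-06). Mlxipl, the carbohydrate response factor ChREBP, was called higher too, but on 3 to 4 counts in WT TE and 15 to 25 in TPdh-/- TE. Insig1, an SREBP target that retains Scap, was higher in TE (0.41 ± 0.07, adjusted p = 0.00106) with a TM value of -0.01 ± 0.11 (adjusted p = 0.974). Mid1ip1, an activator of acetyl-CoA carboxylase, rose by 0.34 ± 0.10 in TE (adjusted p = 0.0277), with a TM value of -0.23 ± 0.14 (adjusted p = 0.179).

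Of the other lists the sterol genes had the largest share higher in TE. All 10 of the sterol genes tested were higher in TPdh-/- TE, with a median of 0.77, and of these 9 had a negative interaction, with none positive. Lss (0.89 ± 0.11, adjusted p = 3.41e-07) and Fdft1 (0.68 ± 0.06, adjusted p = 1.4e-06), both enzymes of cholesterol synthesis, had the smallest p. In TM the median of the list was 0.01. Of 10 genes on other acetyl-CoA routes 2 were higher in TE, a share near that of all genes. They were Acat2, the cytosolic thiolase that joins acetyl-CoA units (0.96 ± 0.11, adjusted p = 2.41e-07), and Slc16a1, a monocarboxylate carrier (0.26 ± 0.12, adjusted p = 0.035). In TM the carnitine acetyltransferase Crat was the one called gene of that list (0.87 ± 0.12, adjusted p = 0.000208). Aacs, which activates acetoacetate for lipid synthesis, was higher in TE as well (0.92 ± 0.11, adjusted p = 6.68e-06), among 3 higher and 1 lower of 9 other genes of fatty acid synthesis, and it had an interaction of -1.17 ± 0.17 (adjusted p = 7.92e-05). The lower one was Oxsm, of mitochondrial fatty acid synthesis (-0.24 ± 0.04, adjusted p = 0.000949).

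Further elongation and desaturation genes gave 7 higher and 1 lower of 16 in TE. Elovl5, which lengthens polyunsaturated chains, rose by 0.49 ± 0.03 (adjusted p = 1.69e-07) and Elovl7 by 0.66 ± 0.13 (adjusted p = 8.53e-05). In TM 1 of the 16 was called, the electron carrier Cyb5a (-0.19 ± 0.08, adjusted p = 0.0414). Of 19 genes of acyl-CoA and glycerolipid synthesis 9 were higher and 2 lower in TE, led by Dgat2, which closes triglyceride synthesis (1.45 ± 0.21, adjusted p = 5.4e-05), and the phosphatidate phosphatase Lpin1 (0.63 ± 0.09, adjusted p = 5.88e-05). In TM 2 were higher and 2 lower. The lipid droplet coat Plin2 was higher in TPdh-/- TM (1.00 ± 0.20, adjusted p = 0.000418) and had an interaction of 1.77 ± 0.26 (adjusted p = 5.54e-05), of opposite sign to Fasn. Lpin2 was also higher there (0.40 ± 0.06, adjusted p = 5.5e-05).

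The remaining lists cover LXR targets, NADPH producers and fatty acid uptake and release. Abca1, the cholesterol exporter under LXR, was higher in TPdh-/- in both cultures (1.25 ± 0.23 in TE, adjusted p = 8.6e-05, and 1.71 ± 0.20 in TM, adjusted p = 9.43e-06). Of the 6 LXR targets outside synthesis 2 were higher and 1, Mylip (-0.32 ± 0.12, adjusted p = 0.0147), lower in TE, and 2 were higher in TM, Abca1 and Apoe (1.10 ± 0.34, adjusted p = 0.00284). Among 9 NADPH producers 3 were higher in TE and 2 in TM. Malic enzyme Me1 was in both sets, on 20 to 28 counts in WT TE against 70 to 89 in TPdh-/- TE, and 0 to 3 in WT TM against 6 to 13 in TPdh-/- TM. Idh1 was higher in TE (0.40 ± 0.10, adjusted p = 0.00233). Of 9 genes of fatty acid uptake and release 4 were higher and 1, the carnitine palmitoyltransferase Cpt1a (-0.48 ± 0.10, adjusted p = 0.000279), lower in TE, and 2 were higher and 3 lower in TM, Cpt1a again among them (-0.40 ± 0.07, adjusted p = 0.00209). The fatty acid receptor Cd36 led them, at 0.11 ± 0.05 CPM (SD) in WT TE against 1.54 ± 0.52 in TPdh-/- TE and 0.26 ± 0.12 in WT TM against 1.71 ± 0.52 in TPdh-/- TM, and lipoprotein lipase (Lpl) rose with it in TM (2.10 ± 0.40, adjusted p = 0.000582). Lpl was also called higher in TE, on 1 to 8 counts in WT against 9 to 21 in TPdh-/-. Cd36, Lpl and Apoe are also macrophage genes. The sum of the macrophage markers rose in the same TM libraries and, by less, in TE, as given above. Of the 7 macrophage markers tested, 6 were called higher in TM. In TE 4 were called higher, and Itgam was called lower (-1.18 ± 0.33, adjusted p = 0.00301). Apoe was not called in TE (-0.09 ± 0.09, adjusted p = 0.844). The part of macrophage signal in Cd36, Lpl and Apoe was not tested.

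**Figure D4:**
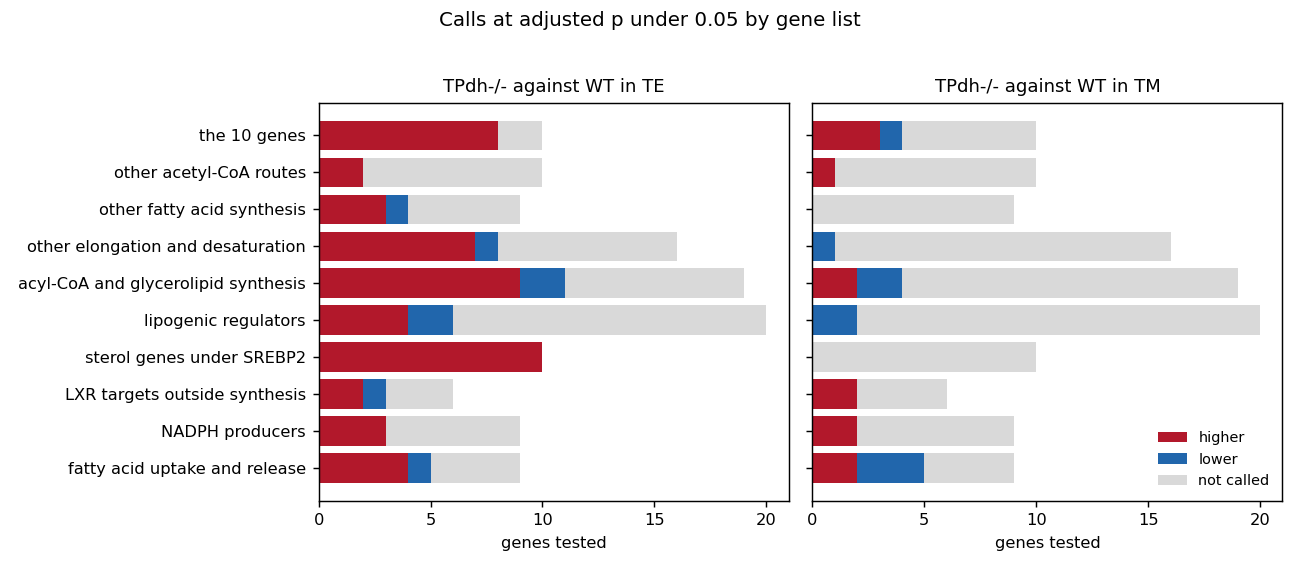
Number of genes called higher (red), lower (blue) or not called (grey) at an adjusted p under 0.05 (x axes) for the 10 genes and 9 other lists (y axis) in TPdh-/- against WT, in TE (left) and TM (right). The 10 genes (8 higher) and the sterol genes (all 10 higher) stand out in TE, and in TM 4 of the 10 genes are called.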

How the data were processed

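Poly(A) RNA libraries of OT-I CD8+ T cell cultures were made with a kit that does not record the strand and sequenced as paired reads. The submitters' processing notes name STAR 2.7.6a, RSEM 1.3.3 and DESeq2 (no version) and the builds mm10 and GRCm38. The annotation release is not given in the sources used here. The deposited tables hold, per gene and library, the expected count that the authors obtained with RSEM, TPM computed by the authors from the same reads, and a mean transcript length. FPKM was deposited too and was not used here.

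Expected counts were rounded, filtered with filterByExpr (minimum count 10, minimum total 15) and tested in edgeR 4.0.16 under R 4.3.3 with TMM factors and a quasi-likelihood fit to all 16 libraries, each group with its own mean. log2 CPM used a prior count of 2. Mean lengths were tested on the log2 scale with limma 3.58.1, and marker sums with exact 2-sided permutation tests. Alternatives used DESeq2 1.42.0, limma on log2 CPM and on log2(TPM + 1), other factors, no filter, fewer groups and fewer libraries. The edgeR and length scripts were tested on simulated data. Gene positions and names came from GENCODE M21 (55141 of 55401 identifiers matched, the 260 others holding at most 0.00955% of a library's counts) and promoters from RefSeq on GRCm38.p6, whose direction was checked against the transcripts. Shared sequence was counted in words of 50 bases on both strands.

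All 10 members are reported. Other genes were named by rule: Srebf1, Srebf2, Mid1ip1, Insig1 and Pdha1 always, and per list up to 2 called genes of smallest adjusted p in each genotype contrast and 1 in the interaction. The members and lists were chosen with earlier results of these data known. Where a gene had 1 to 3 counts per library in a group, counts are given without a fold change.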

Additional observations from a re-analysis of the deposited data

Results flagged for a closer look

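In 2 of 40 sets (each of the 10 genes in each of the 4 groups) a single library lay far from the other 3 by Dixon's gap at the 95% level. Chance alone marks about 1 set in 20, so this is the number chance would bring. Fasn stood at 198 CPM in WT TE library 1, against 247.5 to 250 CPM in libraries 2 to 4. Scd1 stood at 3.44 CPM in WT TM library 10, against 1.36 to 1.39 CPM in libraries 9, 11 and 12.

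For 5 genes the genotype difference itself differed between the cultures, by the interaction in edgeR. TM minus TE, it was -1.74 for Fasn, -1.07 for Elovl6, -1.06 for Acaca, -0.57 for Slc25a1 and -0.56 for Acly (log2), with adjusted p from 5.43e-05 to 0.0036.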

How the results depend on the processing

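The 5 interaction calls and the TE calls of Fasn, Elovl6, Acaca, Slc25a1, Acly, Scd2 and Fads2 held under every alternative run for them. Of 820 alternative values over 50 gene and comparison pairs, 772 kept their direction and their side of the threshold. Members higher in TM numbered 1 on log2(TPM + 1), and 1 to 3 when single libraries were left out. Members lower in TM numbered 0 on log2(TPM + 1) and without libraries 5 and 12, and 0 to 2 when single libraries were left out. On log2(TPM + 1), which is not rescaled between libraries, all genes called in the genotype comparison in TM numbered 1637 instead of 2796, members higher with culture in WT 1 and members lower in the interaction 8. That scale also moved the median of all genes to 0.12 for culture in WT, 0.09 for the genotype in TE and -0.12 in the interaction. In the genotype comparison in TE 84% of the calls on that scale were higher genes, against 54.8% in the counts. On that scale the sign turned for Acly (0.0003) and Elovl6 (0.065) with culture in WT and for Scd1 (-0.19) and Fads2 (-0.54, adjusted p = 0.0392) in the interaction. Fads2 also turned there without library 7 (-0.01) or library 16 (-0.14), and Scd2 in TM without library 16 (-0.042), and with single libraries left out these ran from -0.14 to 0.244 and from -0.042 to 0.136. The cause of these turns was not tested. The exact p of the macrophage and of the B and plasma cell marker sums in TE went from 0.0286 to 0.114 and 0.0857 with summed log2(TPM + 1). No paired analysis was possible because the groups share no replicate numbers. Scd1 and Fads2 in TM rest on 81 to 377 and 97 to 298 counts per library, which limits their precision.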
